A study of Mus musculus with 7 samples.

Results

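The G1 cyclins and the inhibitors of the kinases they activate were followed as 10 genes among the 43629 rows of the count table, found by their symbols; no measured value enters that rule, although earlier results of these data were known when the genes were chosen. They are the CIP/KIP inhibitors Cdkn1a, Cdkn1b and Cdkn1c, the INK4 inhibitors Cdkn2a and Cdkn2b, the D cyclins Ccnd1, Ccnd2 and Ccnd3, and the E cyclins Ccne1 and Ccne2. All 10 were found and all 10 passed the filter on low counts, which left 18426 genes.

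Polyadenylated RNA was sequenced from 7 libraries of E14 mouse embryonic stem (ES) cells, a line of 129/Ola background derived from the blastocyst, and of cells differentiated from them. Ago2-knockout ES cells kept undifferentiated in serum with LIF (KO ES) gave 3 libraries, C4 from the knockout line of that name and 5-3_1 and 5-3_2 from the line 5-3. Wild-type E14 cells gave 2 libraries, A and B, after 5 days of differentiation towards extra-embryonic endoderm (XEN) with 10 ng/mL activin A and 0.1 µM all-trans retinoic acid in medium with serum (WT XEN). The knockout lines C4 and 5-3 gave 1 library each after the same treatment (KO XEN). Wild-type ES cells are not analysed here, so that in WT XEN against KO ES genotype and differentiation cannot be told apart. Nothing in the labels tells if replicate libraries are separate cultures. The p-values therefore measure only the spread between these libraries, which within a line may be technical. In the knockout groups this spread includes the difference between the lines C4 and 5-3. The tests with 3 groups count 5-3_1 and 5-3_2 as separate replicates, although they come from the same line.

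Passage from G1 into S phase is driven by cyclin-dependent kinases. D cyclins activate Cdk4 and Cdk6, E cyclins activate Cdk2, and both kinases phosphorylate the retinoblastoma protein, which releases E2F factors. INK4 proteins bind Cdk4 and Cdk6 and keep D cyclins off, whereas CIP/KIP proteins bind cyclin-kinase complexes and are best known as inhibitors of Cdk2. Mouse ES cells are known for a short G1 phase, with abundant E cyclins and little of the inhibitors. Ago2 is an Argonaute protein that carries microRNAs to target transcripts, and the ES cell microRNAs of the miR-290 and miR-302 families are known to act on Cdkn1a.

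Library totals ran from 13941826 counts in KO XEN C4 to 48650113 in KO ES 5-3_2. The Ago2 transcript stood at 94.4 CPM (counts per scaled library size, by TMM) in KO ES C4 and 122 in KO XEN C4, at 9.37 to 9.94 in the libraries of 5-3, and at 394 and 432 in WT XEN, so that the lines labelled knockout differed in the transcript that remained. The summed level of 8 ES cell markers was 5476 to 5625 CPM in KO ES, 889 to 934 in WT XEN and 70.7 to 97.9 in KO XEN. That of 10 XEN markers was 384 to 391 CPM, 30732 to 49021 and 6417 to 7699 in the same order, with Sox17 at 3.19 and 3.23 and Sox7 at 1.52 and 3.11 CPM in KO XEN against 85.4 and 95.6, and 111 and 157, in WT XEN. The cells labelled KO XEN thus carried low levels of these 2 defining XEN markers, whose means there were the lowest of the 10. Of all 10, 8 exceeded their KO ES level, 0 were below it and 2, Sox7 and Lama1, were not called (edgeR test below). Relative to WT XEN, 9 of the 10 were lower and 1, Gata6, was not called. The sum of 10 fibroblast markers was 43.6 to 46.6 CPM in KO ES, where Col3a1 and Postn had 0 counts, 827 to 1882 in WT XEN and 11068 to 13520 in KO XEN, and that of 6 neural markers was 84.7 to 108, 58.1 to 87.7 and 458 to 530. In KO XEN C4 and 5-3, Acta2 gave 4090 and 4473 CPM of the fibroblast sum and Tagln 3585 and 4044. Nes alone gave 425 and 331 CPM of the neural sum in KO XEN C4 and 5-3. Against KO ES, 3 of the 6 neural markers were higher in KO XEN, 1 was lower and 2 were not called (edgeR test below). The lower gene was Sox1, at a mean of 3.73 CPM in KO ES and 0.134 in KO XEN. In bulk libraries fewer cells of a type and less RNA per cell cannot be told apart.

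The seed of a microRNA, its bases 2 to 8, pairs with matching sites in the 3′ untranslated region (UTR) of a transcript. The mature sequences of 7 microRNAs known to act on these genes are given from RefSeq (GRCm38.p6) with the seed in capitals, because Argonaute proteins load such RNAs and the members differ in the matches they carry. The first pair shares the seed AAGUGCU. None of these microRNAs was measured in the libraries.
mmu-miR-294-3p: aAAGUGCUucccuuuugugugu
mmu-miR-302b-3p: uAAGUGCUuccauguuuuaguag
mmu-miR-17-5p: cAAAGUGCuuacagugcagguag
mmu-miR-16-5p: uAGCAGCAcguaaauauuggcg
mmu-let-7a-5p: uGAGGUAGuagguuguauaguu
mmu-miR-34a-5p: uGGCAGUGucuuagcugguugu
mmu-miR-221-3p: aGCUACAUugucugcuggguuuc

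Matches of 7 or 8 bases to these seeds were searched in the 3′ UTRs of GENCODE M21 transcripts (21045 genes, median length 960 bases). A 7-base match pairs either with the whole seed or with bases 2 to 7 of the microRNA, followed by an A in the transcript. An 8-base match has the whole seed and the A. All these kinds enter the counts and the shares of all UTRs. The seed AAGUGCU of miR-294 and miR-302b had 2 matches in the 1334 bases of the Cdkn1a UTR and 1 each in the 2676 bases of Ccnd1 and the 5173 bases of Ccnd2, and 17.7% of all UTRs held at least 1. These 4 sites are shown with the match in capitals, for Cdkn1a at chr17:29099814-29099836 and chr17:29100486-29100509 (plus strand), for Ccnd1 at chr7:144931675-144931697 and for Ccnd2 at chr6:127129339-127129361 (both minus strand).
Cdkn1a, first site: cctcagacctgaatAGCACTTtg
Cdkn1a, second site: accgtgggtgtcaaAGCACTTAgt
Ccnd1: ccattccatttcaaAGCACTTtt
Ccnd2: cattccattagaaaAGCACTTtg

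Matches to miR-221 were present 3 times in Cdkn1b, once in Cdkn1c and 3 times in Ccnd2, and in 15.6% of all UTRs. The 8-base matches of Cdkn1b (chr6:134924417-134924440, plus strand) and of Cdkn1c (chr7:143458923-143458946, minus strand) are shown because these inhibitors differed in opposite directions between the genotypes, as given below.
Cdkn1b: tctaaaagcattggATGTAGCAtt
Cdkn1c: gggacctttcgttcATGTAGCAgg

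For miR-16, a match was present in 6 of the 10 members against 23.4% of all UTRs: 3 in each of Ccnd1 and Ccnd2, 2 in each of Ccnd3 and Ccne1, and 1 in each of Cdkn1a and Cdkn2b. The members include long UTRs, up to 5173 bases in Ccnd2, and a longer UTR holds more matches of any kind. The 8-base match of Ccne1 (chr7:38098021-38098044, minus strand) reads as follows.
Ccne1: tcttattttgtaagTGCTGCTAtg
miR-17 had a match in 5 of the 10 members, Cdkn1a, Cdkn2b, Ccnd1, Ccnd2 and Ccne2, against 18.6% of all UTRs, and in Cdkn1a, Ccnd1 and Ccnd2 it overlaps a match to AAGUGCU. let-7a had matches in 2 of the 10 members, Ccnd1 and Ccnd2, against 14.9% of all UTRs. These let-7a matches were all of the 7-base kind that ends in the A and lacks the last base of the seed. miR-34a had them in 2 of the 10, Ccnd1 and Ccne2, against 19.8%. Both counts are near the share of all UTRs. A match is a description of these letters and not a measured site.

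RefSeq promoters, from 250 bases before to 50 after an annotated start, were found for 6 members (9 promoters); Cdkn1c, Ccnd1, Ccnd2 and Ccne2 had no entry in the table. On both strands they were searched for E2F sites (TTTCCCGC, TTTCGCGC, TTTGCCGC or TTTGGCGC), for the cell cycle element CHR (TTTGAA or TTCGAA) and for the p53 full site, a pair of 10-base half-sites at most 13 bases apart. The p53 full site was present in the upstream promoter of Cdkn1a at position -73 from its start, and in 24 of 32851 promoters (0.0731%). Cdkn1a is a classical target of p53, and this promoter (GRCm38.p6, chr17:29090729-29091028, plus strand) is shown with the match in capitals. The search allowed no mismatch in a half-site. The capitals mark letters that met the pattern and not a measured site of p53 binding. It lies 2790 bases upstream of the other annotated Cdkn1a promoter, and the gene counts do not tell which start was used.
Cdkn1a, upstream promoter: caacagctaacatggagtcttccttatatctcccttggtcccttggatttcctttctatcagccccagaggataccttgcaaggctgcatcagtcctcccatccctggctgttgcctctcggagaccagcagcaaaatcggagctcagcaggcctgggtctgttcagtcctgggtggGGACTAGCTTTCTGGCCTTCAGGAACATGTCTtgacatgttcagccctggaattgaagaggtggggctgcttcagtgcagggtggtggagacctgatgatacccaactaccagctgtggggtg

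An E2F site was present in 1 member promoter, the first of Cdkn2a (chr4:89294570-89294869, minus strand), at position -99, and in 2.26% of all promoters. It is shown because Cdkn2a is 1 of the 2 members with the largest rise from KO ES to KO XEN. This promoter lies upstream of the other Cdkn2a promoter (chr4:89282143-89282442, minus strand), which had no E2F site. The gene counts do not tell which of these starts was used. A CHR match was present in Cdkn2b at position -161, and in 19.2% of all promoters.
Cdkn2a, first promoter: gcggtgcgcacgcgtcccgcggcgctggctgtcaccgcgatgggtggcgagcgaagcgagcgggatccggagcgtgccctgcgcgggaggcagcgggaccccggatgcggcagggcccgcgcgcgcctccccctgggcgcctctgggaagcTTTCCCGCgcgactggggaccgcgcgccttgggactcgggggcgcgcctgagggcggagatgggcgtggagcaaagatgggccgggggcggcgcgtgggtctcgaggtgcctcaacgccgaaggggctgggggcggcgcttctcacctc

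Between KO XEN and WT XEN 6 of the 10 members were higher in the knockout cells, 2 were lower and 2 did not pass the threshold (edgeR quasi-likelihood test over 18426 genes, adjusted p below 0.05). Among all genes 46.2% were called in this comparison, 22.3% higher and 23.9% lower. Cdkn1a, Cdkn1c, Cdkn2a, Cdkn2b, Ccnd1 and Ccnd3 were higher, and Cdkn1b and Ccne2 were lower. The median log2 fold change of the members was 1.71, and that of all genes 0. The libraries of the 2 groups did not overlap for 8 members, and for 76.5% of all genes.

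In KO XEN against KO ES 6 members were higher, 3 were lower and 1 was not called, where 69.0% of all genes were called, 34.8% higher and 34.3% lower. The median was 1.26 for the members and -0.08 for all genes, and the groups did not overlap for 9 members and 81.0% of all genes. WT XEN against KO ES gave 5 higher, 4 lower and 1 not called, where 62.5% of all genes were called, 32.2% higher and 30.3% lower, and groups did not overlap for 9 members and 76.1% of all genes. The 3 comparisons share libraries, so that they do not count as separate evidence of a pattern. Without the 3 libraries of line 5-3, which leaves C4 alone in both knockout groups and 1 residual degree of freedom, no gene was called in KO XEN against WT XEN by edgeR (6514 had an unadjusted p under 0.05, smallest adjusted p 0.0889), and all 8 members called there kept their direction.

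**Figure D1:**
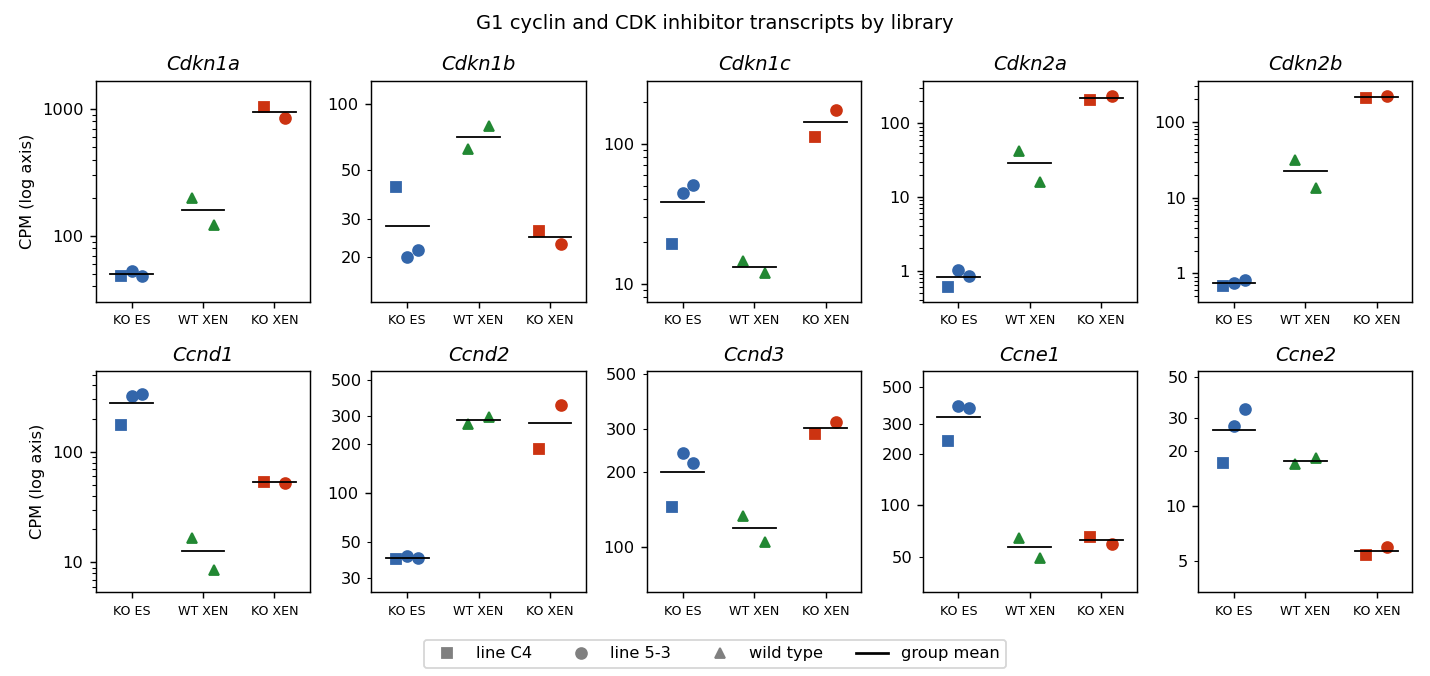
CPM of each member (log axis, a scale of its own in each panel) in the 3 KO ES, 2 WT XEN and 2 KO XEN libraries; symbols mark the line and bars the group mean. Cdkn1a, Cdkn2a and Cdkn2b stand lowest in KO ES and highest in KO XEN, Ccne1 is highest in KO ES, and Cdkn1b is highest in WT XEN.

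Cdkn1a encodes p21, the inhibitor induced by p53 (ENSMUSG00000023067, chromosome 17, 29090976 to 29100727, plus strand, mm10). Its level was 48.3, 53.1 and 48.5 CPM in KO ES C4, 5-3_1 and 5-3_2, 199 and 123 CPM in WT XEN A and B, and 1039 and 845 CPM in KO XEN C4 and 5-3. The 3 groups did not overlap, and both KO XEN libraries stood above every other library. KO XEN exceeded WT XEN by a log2 fold change of 2.55 ± 0.25 (SE, adjusted p = 0.000279) and KO ES by 4.24 ± 0.23 (adjusted p = 3.26e-06). WT XEN exceeded KO ES by 1.69 ± 0.21 (adjusted p = 0.000276). Cdkn1a carries 2 of the AAGUGCU seed matches and the match to the p53 full site printed above.

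Cdkn1b encodes p27, which holds Cdk2 inactive in resting cells (ENSMUSG00000003031, chromosome 6, 134920401 to 134925513, plus strand). It stood at 41.8, 20.0 and 21.5 CPM in KO ES, 62.4 and 79.6 in WT XEN, and 26.4 and 22.9 in KO XEN. WT XEN was the highest group with no overlap, whereas both KO XEN values lay between those of line 5-3 and C4 in KO ES. KO XEN was lower than WT XEN (log2 fold change -1.53 ± 0.36, adjusted p = 0.0102). That call was lost without WT XEN B (adjusted p = 0.0576) or without KO XEN 5-3 (0.0520), within a range of 0.000261 to 0.0914 over all alternatives. WT XEN was higher than KO ES (1.35 ± 0.32, adjusted p = 0.00636), and KO XEN and KO ES did not differ past the threshold (-0.17 ± 0.33, adjusted p = 0.653), with a value of 0.15 when KO ES C4 was left out.

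Cdkn1c encodes p57, the imprinted member of the family, best known in tissues that leave the cell cycle (ENSMUSG00000037664, chromosome 7, 143458339 to 143461050, minus strand). The level was 19.2, 44.3 and 50.8 CPM in KO ES, 14.6 and 11.9 in WT XEN, and 113 and 176 in KO XEN. Groups did not overlap, WT XEN was lowest, and within each knockout group C4 was below 5-3. KO XEN exceeded WT XEN by a log2 fold change of 3.45 ± 0.47 (adjusted p = 0.000912). KO XEN was higher than KO ES by 1.92 ± 0.38 (adjusted p = 0.00243). WT XEN was below KO ES (-1.52 ± 0.41, adjusted p = 0.0124), a call lost without WT XEN A (0.0530) or B (0.0831), within a range of 0.000412 to 0.213. An antisense gene, Gm44732, overlaps 625 exon bases of Cdkn1c and was not counted apart.

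Cdkn2a and Cdkn2b are neighbours on the minus strand of chromosome 4, at 89274471 to 89294653 (ENSMUSG00000044303) and 89306299 to 89311039 (ENSMUSG00000073802). Cdkn2a encodes p16 of the INK4 family and, from another first exon and reading frame, p19 Arf, which blocks Mdm2; the gene count pools both transcripts and cannot tell them apart. Cdkn2b encodes p15, an inhibitor known to respond to TGF-beta.

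Cdkn2a had 25, 42 and 42 counts in KO ES, or 0.600, 1.01 and 0.841 CPM, and stood at 41.9 and 15.7 CPM in WT XEN and 207 and 235 in KO XEN. Cdkn2b stood at 0.672, 0.744 and 0.821 CPM in KO ES, 31.4 and 13.3 in WT XEN, and 208 and 219 in KO XEN. Both were at or below 1.01 CPM in all 3 ES cell libraries, intermediate in WT XEN and highest in KO XEN, with no overlap.

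KO XEN exceeded KO ES by 8.07 ± 0.47 on the log2 scale for Cdkn2a (adjusted p = 4.49e-06) and by 8.15 ± 0.39 for Cdkn2b (adjusted p = 2.38e-06), which were the 2 largest differences among the members. Against WT XEN the log2 fold changes in KO XEN were 2.94 ± 0.43 for Cdkn2a (adjusted p = 0.00122) and 3.25 ± 0.37 for Cdkn2b (adjusted p = 0.000443). Without WT XEN A they were 3.74 and 3.92. WT XEN was above KO ES by 5.13 ± 0.43 (adjusted p = 3.76e-05) and 4.90 ± 0.36 (adjusted p = 2.21e-05), and without WT XEN A by 4.30 and 4.18. In WT XEN the library A had higher levels than B of Cdkn1a, Cdkn1c, Cdkn2a, Cdkn2b, Ccnd1, Ccnd3 and Ccne1. Cdkn1b, Ccnd2 and Ccne2 were higher in B. Library A also had the higher sum of fibroblast markers (1882 against 827 CPM in B) and the lower sum of proliferation markers (2252 against 2824). The part of these markers in the result was not tested. Over the groups, too, fibroblast markers moved with the INK4 genes: 8 of the 10 were higher in KO XEN than in WT XEN and 1 was lower (22.3% and 23.9% of all genes). Neural markers did so in part. Their sum was also higher in A than in B (87.7 against 58.1 CPM), and 4 of the 6 were higher in KO XEN than in WT XEN with 0 lower. In KO ES, however, the neural sum was 84.7 to 108 CPM and not the lowest of the groups. Which cells carry the INK4 transcripts was not tested.

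Cyclin D1, Ccnd1, links growth factor signals to Cdk4 and Cdk6 (ENSMUSG00000070348, chromosome 7, 144929931 to 144939925, minus strand). It stood at 175, 318 and 335 CPM in KO ES, 16.6 and 8.60 in WT XEN, and 53.9 and 52.2 in KO XEN. The order was KO ES above KO XEN above WT XEN, with no overlap. WT XEN was below KO ES by a log2 fold change of -4.45 ± 0.41 (adjusted p = 6.11e-05), and KO XEN by -2.38 ± 0.37 (adjusted p = 0.000615). KO XEN was above WT XEN (2.07 ± 0.38, adjusted p = 0.00351). The gene LTO1 shares 1100 exon bases with Ccnd1 on the opposite strand and stood at 7.56 to 25.7 CPM, and since the strand setting of the counting is not given in the sources used here, the low Ccnd1 values in WT XEN are uncertain to that extent.

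Ccnd2 encodes cyclin D2 (ENSMUSG00000000184, chromosome 6, 127125162 to 127152193, minus strand) and moved the other way. The values were 39.2, 41.0 and 39.9 CPM in KO ES, 269 and 294 in WT XEN, and 188 and 352 in KO XEN. Every differentiated library was above every ES cell library, and the pair of WT XEN values lay between the 2 knockout lines. Both differentiated groups exceeded KO ES, WT XEN by 2.81 ± 0.24 (adjusted p = 4.36e-05) and KO XEN by 2.75 ± 0.24 (adjusted p = 2.93e-05), or by 2.16 without KO XEN 5-3. The genotypes did not differ past the threshold after differentiation (-0.06 ± 0.26, adjusted p = 0.88). That value depended on the line: it was 0.32 without KO XEN C4 (adjusted p = 0.206) and -0.66 without KO XEN 5-3 (adjusted p = 0.0386), within a range of 0.0386 to 1 over all alternatives.

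Ccnd3, the gene of cyclin D3 (ENSMUSG00000034165, chromosome 17, 47505051 to 47599691, plus strand), stood at 145, 239 and 218 CPM in KO ES, 133 and 105 in WT XEN, and 287 and 320 in KO XEN. KO XEN was highest and WT XEN lowest, with KO ES C4 close to WT XEN A. KO XEN exceeded WT XEN (log2 fold change 1.35 ± 0.25, adjusted p = 0.00356). Against KO ES the rise was small (0.60 ± 0.22, adjusted p = 0.0419) and was lost in 12 of 16 alternatives, among them other scalings and leaving out KO ES C4 (0.111), KO ES 5-3_2 (0.100), WT XEN A (0.0633), KO XEN C4 (0.0870) or KO XEN 5-3 (0.268), within a range of 0.0100 to 0.268. WT XEN was below KO ES (-0.76 ± 0.23, adjusted p = 0.0210), a call lost without KO ES 5-3_1 (0.0724), KO ES 5-3_2 (0.0576) or WT XEN B (0.133), within a range of 0.00209 to 0.465. Bysl shares 361 exon bases with Ccnd3 on the opposite strand and stood at 27.3 to 102 CPM.

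Ccne1 encodes cyclin E1, the activator of Cdk2 at the entry into S phase (ENSMUSG00000002068, chromosome 7, 38097984 to 38107534, minus strand). It stood at 238, 383 and 372 CPM in KO ES, 64.2 and 49.5 in WT XEN, and 65.0 and 59.5 in KO XEN. All ES cell libraries were above all differentiated ones, and WT XEN and KO XEN overlapped. Both differentiated groups were lower than KO ES, with log2 fold changes of -2.54 ± 0.25 in WT XEN (adjusted p = 8.65e-05) and -2.41 ± 0.25 in KO XEN (adjusted p = 7.16e-05). No difference past the threshold was found between the genotypes (0.13 ± 0.25, adjusted p = 0.698), and without WT XEN B the value was -0.05.

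Ccne2, which encodes the second E cyclin (ENSMUSG00000028212, chromosome 4, 11191351 to 11204779, plus strand), differed from Ccne1 in this respect. It stood at 17.0, 27.1 and 33.7 CPM in KO ES, 17.0 and 18.2 in WT XEN, and 5.44 and 5.97 in KO XEN. Both KO XEN libraries were below every other library, and the WT XEN values overlapped KO ES C4. The log2 fold change of KO XEN was -1.62 ± 0.32 against WT XEN (adjusted p = 0.00481) and, against KO ES, -2.18 ± 0.31 (adjusted p = 0.000401). WT XEN and KO ES did not differ past the threshold (-0.56 ± 0.28, adjusted p = 0.118), although they did without KO ES C4 (-0.81, adjusted p = 0.00825, range 0.00825 to 0.849). Ints8 shares 609 exon bases with Ccne2 on the opposite strand and stood at 72.7 to 85.1 CPM in KO ES, 47.8 and 69.3 in WT XEN, and 18.8 and 22.6 in KO XEN, where it was lowest, as Ccne2 was. Its part in the Ccne2 counts was not tested. Opposite-strand genes that were not counted apart also overlap 273 exon bases of Cdkn1a and 372 of Ccnd2.

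**Figure D2:**
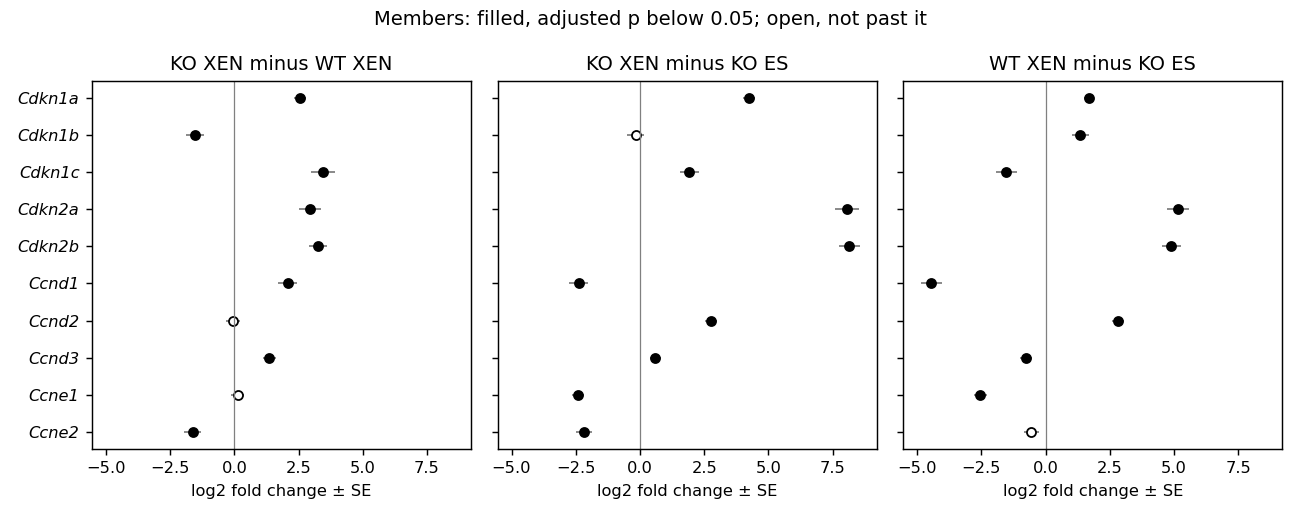
Log2 fold change of each member with its standard error in the 3 comparisons; filled points passed an adjusted p of 0.05 and open points did not. Cdkn2a and Cdkn2b lie near 8 in KO XEN against KO ES, and in KO XEN against WT XEN the filled points of Cdkn1b and Ccne2 lie below 0 and the other 6 filled points above it.

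Levels of different genes were compared as CPM per kilobase of exon, the union of all annotated exons. Ccnd1 made up 67.8% ± 3.35 (SD, n = 3) of D cyclin level in KO ES, 5.77% ± 2.42 (n = 2) in WT XEN and 15.5% ± 3.40 (n = 2) in KO XEN. Ccnd2 held 5.28% ± 1.66, 65.0% ± 6.34 and 37.6% ± 9.08, and Ccnd3 held 26.9% ± 1.92, 29.2% ± 3.92 and 46.9% ± 5.68, in the same order. The leading D cyclin was thus Ccnd1 in ES cells and Ccnd2 in WT XEN. In KO XEN Ccnd3 led in C4 and was close to Ccnd2 in 5-3, where Ccnd2 held 44.0% and Ccnd3 42.9%. With the longest transcript as the length the Ccnd3 share was 39.6%, 39.0% and 58.5%, the Ccnd1 share 55.3%, 4.25% and 10.7%, and the Ccnd2 share 5.07%, 56.7% and 30.8%. On that scale Ccnd3 led in KO XEN 5-3 too, at 54.4% against 36.5% for Ccnd2, so that the order in 5-3 depended on the length used. Ccne1 held 94.4% ± 0.756 of the E cyclin level in KO ES, 80.7% ± 3.62 in WT XEN and 93.5% ± 0.779 in KO XEN.

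**Figure D3:**
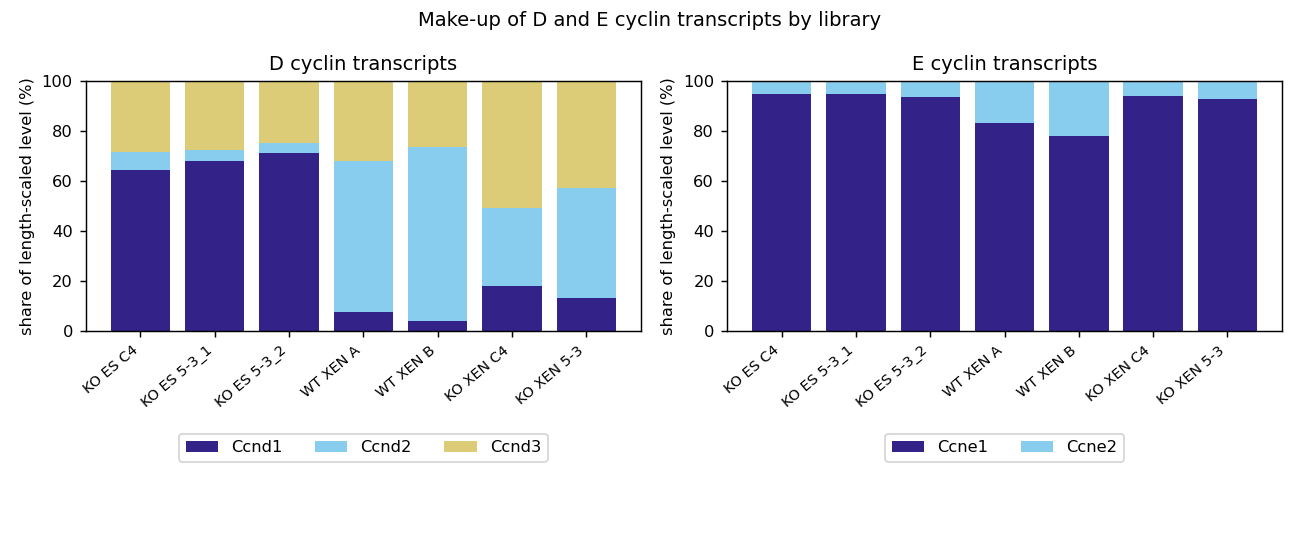
Share of each gene in the summed length-scaled level (CPM per kilobase of exon) of the D cyclins, left, and the E cyclins, right, as stacked bars for each library. Ccnd1 fills 64.3% to 71.0% of the bar in KO ES, Ccnd2 60.5% to 69.5% in WT XEN, and Ccnd3 42.9% to 50.9% in KO XEN.

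Summed by class on this scale, the INK4 genes gave 0.996 to 1.40 CPM per kilobase in KO ES, 23.0 to 58.4 in WT XEN and 326 to 358 in KO XEN. CIP/KIP genes gave 32.2 to 43.3, 57.9 to 76.8 and 329 to 353, of which Cdkn1a held 77.5% ± 7.39 in KO XEN and 36.7% ± 5.37 in KO ES. With the longest transcript as the length these shares were 84.6% and 48.4%. The mean share of Cdkn1c in KO ES was 46.5% by the exon union and 38.8% by the longest transcript. By mean share the leading CIP/KIP gene in KO ES thus depended on the length used. It also differed between libraries. By the exon union Cdkn1a led in C4, at 42.3% against 29.2% for Cdkn1c, and Cdkn1c led in 5-3_1 and 5-3_2, at 52.9% and 57.6%. By the longest transcript Cdkn1c led in 5-3_2 alone, at 48.8% against 42.6% for Cdkn1a. D cyclins gave 57.9 to 100.2, 45.0 to 47.2 and 64.1 to 84.9, and E cyclins 94.4 to 152, 23.8 to 29.0 and 24.1 to 26.0. In KO ES the E cyclins led in every library, and in KO XEN both inhibitor classes stood above both cyclin classes. The sum of the proliferation markers had the opposite order of the INK4 and CIP/KIP sums. It was 4892 to 5202 CPM in KO ES, 2252 to 2824 in WT XEN and 762 to 837 in KO XEN, and between the XEN groups 13 of the 14 were lower in the knockout with none higher. The relation of these markers to the members was not tested.

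**Figure D4:**
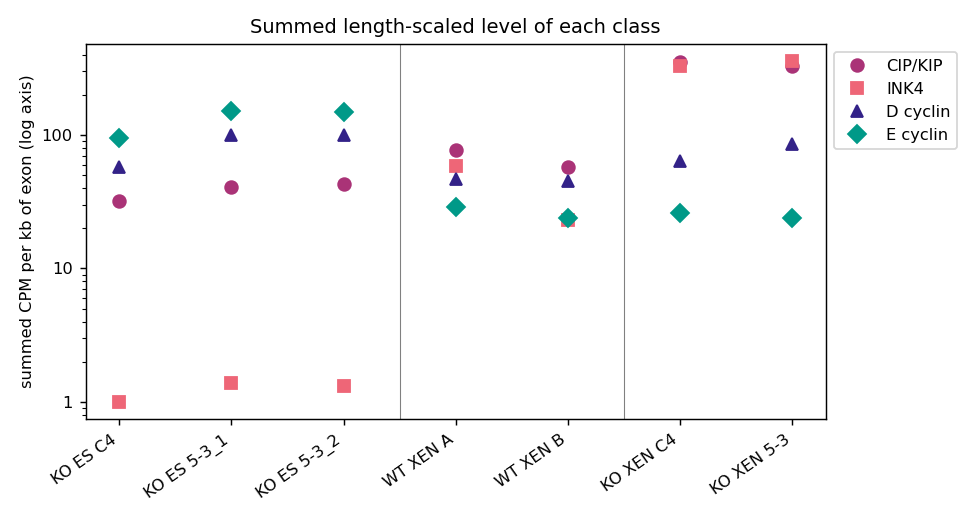
Summed CPM per kilobase of exon (log axis) of the 4 classes in each library, with grey lines between the groups. The INK4 sum lies near 1 in KO ES and above 300 in both KO XEN libraries, and the E cyclin sum is highest in KO ES.

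The lines C4 and 5-3 were compared with line as a term in the fit, a test added after the data were seen. No member was called for the line, and 14 genes (0.0760%) were. The smallest adjusted p of a member was that of Cdkn1c (0.194, log2 difference of C4 from 5-3 -1.02 ± 0.21). A second edgeR model, with 5 groups, let differentiation act differently in each line. It called 0 of 18426 genes, while 1844 had an unadjusted p under 0.05, among them 2 members, Ccnd2 and Ccne1 (edgeR adjusted p = 0.409 and 0.495). On the scale of log2(CPM + 0.5), Cdkn1a was higher in XEN than in ES cells by 4.41 in C4 and 4.04 in 5-3, and Cdkn2b by 7.48 and 7.42. Ccnd2 was higher by 2.25 in C4 and 3.10 in 5-3. Cdkn1b is the member whose change had opposite signs in the lines, -0.65 in C4 and 0.14 in 5-3. These fits have 3 and 2 residual degrees of freedom, and a missed threshold does not show that the lines act alike, all the more since C4 kept more Ago2 transcript.

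Of 35 other genes of the G1/S pathway, 8 were higher in KO XEN than in WT XEN, 7 were lower and 20 were not called, with 46.2% called among all genes. Cdk6, a partner of the D cyclins, was higher (41.3 and 27.2 CPM against 10.2 and 6.58, log2 fold change 2.03 ± 0.30, adjusted p = 0.00122), as was Cdk4 (0.90 ± 0.17, adjusted p = 0.004). Cdk2, the partner of the E cyclins, was lower at 40.1 and 45.4 CPM against 116 and 132 (-1.54 ± 0.19, adjusted p = 0.000616). Cyclin A2, Ccna2, which takes over Cdk2 in S phase, was lower at 34.6 and 30.4 CPM against 193 and 251 (-2.77 ± 0.18, adjusted p = 0.000131). The partners of the D and the E cyclins thus differed in opposite directions between the genotypes. Among the pocket proteins Rbl1 was lower (-1.54 ± 0.32, adjusted p = 0.00595), Rbl2 was higher (1.02 ± 0.23, adjusted p = 0.00911) and Rb1 was not called (-0.02 ± 0.30, adjusted p = 0.978). Trp53, which encodes the p53 factor, was higher (1.39 ± 0.26, adjusted p = 0.00393) at 224 and 202 CPM against 99.9 and 62.4. Mdm4, an inhibitor of p53, was lower at 85.4 and 84.5 CPM against 260 and 393 (-1.94 ± 0.31, adjusted p = 0.00172). Mdm2, which p19 Arf blocks, was higher at 452 and 247 CPM against 180 and 181 (0.95 ± 0.26, adjusted p = 0.0184). Cul1, the scaffold of the ligase that degrades p27 and cyclin E, was lower (-1.14 ± 0.17, adjusted p = 0.00141).

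In KO XEN against KO ES 7 of the 35 were higher, 20 were lower and 8 were not called, where 34.8% of all genes were higher and 34.3% lower. In WT XEN against KO ES 3 were higher, 18 lower and 14 not called, where 32.2% of all genes were higher and 30.3% lower. Of the 10 E2F and DP factors among them, 7 were lower and 1 higher in KO XEN, and 8 were lower and 1 higher in WT XEN. E2f2, an activating factor, fell from a range of 25.1 to 40.6 CPM over the ES cell libraries to 4.22 and 2.88 in WT XEN (a change of -3.28 ± 0.32, adjusted p = 7.94e-05) and 4.72 and 5.97 in KO XEN (-2.68 ± 0.31, adjusted p = 0.000128). E2f6, a repressor that acts without pocket proteins, was the exception and rose in WT XEN (1.21 ± 0.15, adjusted p = 0.000296) and in KO XEN (1.48 ± 0.15, adjusted p = 7.3e-05). Between the genotypes 1 of these 10 factors was called, where 46.2% of all genes were.

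E2f1, an activator of S phase genes, was lower than in KO ES both in WT XEN (-1.17 ± 0.15, adjusted p = 0.00035) and in KO XEN (-1.13 ± 0.15, adjusted p = 0.000322). The same held for E2f7 (-0.94 ± 0.16, adjusted p = 0.00114, and -0.53 ± 0.15, adjusted p = 0.0149) and for the partner gene Tfdp2 (-1.52 ± 0.27, adjusted p = 0.00172, and -1.44 ± 0.27, adjusted p = 0.00183). Trp53 stood at 314 to 465 CPM in KO ES and was lower in WT XEN (-2.24 ± 0.26, adjusted p = 0.000184) and in KO XEN (-0.85 ± 0.24, adjusted p = 0.0141), so that in KO XEN it lay between the other groups. In KO XEN, Ccna2 (-3.16 ± 0.18, adjusted p = 4.4e-06), Mdm4 (-2.73 ± 0.30, adjusted p = 0.0001), Cdc25b, a phosphatase that activates kinases of the cycle (-1.46 ± 0.17, adjusted p = 0.00015), and Ccnh, the cyclin of Cdk7 (-1.32 ± 0.17, adjusted p = 0.00023), were lower than in KO ES. Mdm4 (-0.79 ± 0.28, adjusted p = 0.0355), Cdc25b (-0.84 ± 0.17, adjusted p = 0.00294) and Ccnh (-0.74 ± 0.16, adjusted p = 0.005) were also lower in WT XEN than in KO ES, and Ccna2 was not called there (-0.38 ± 0.16, adjusted p = 0.0643).

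**Figure D5:**
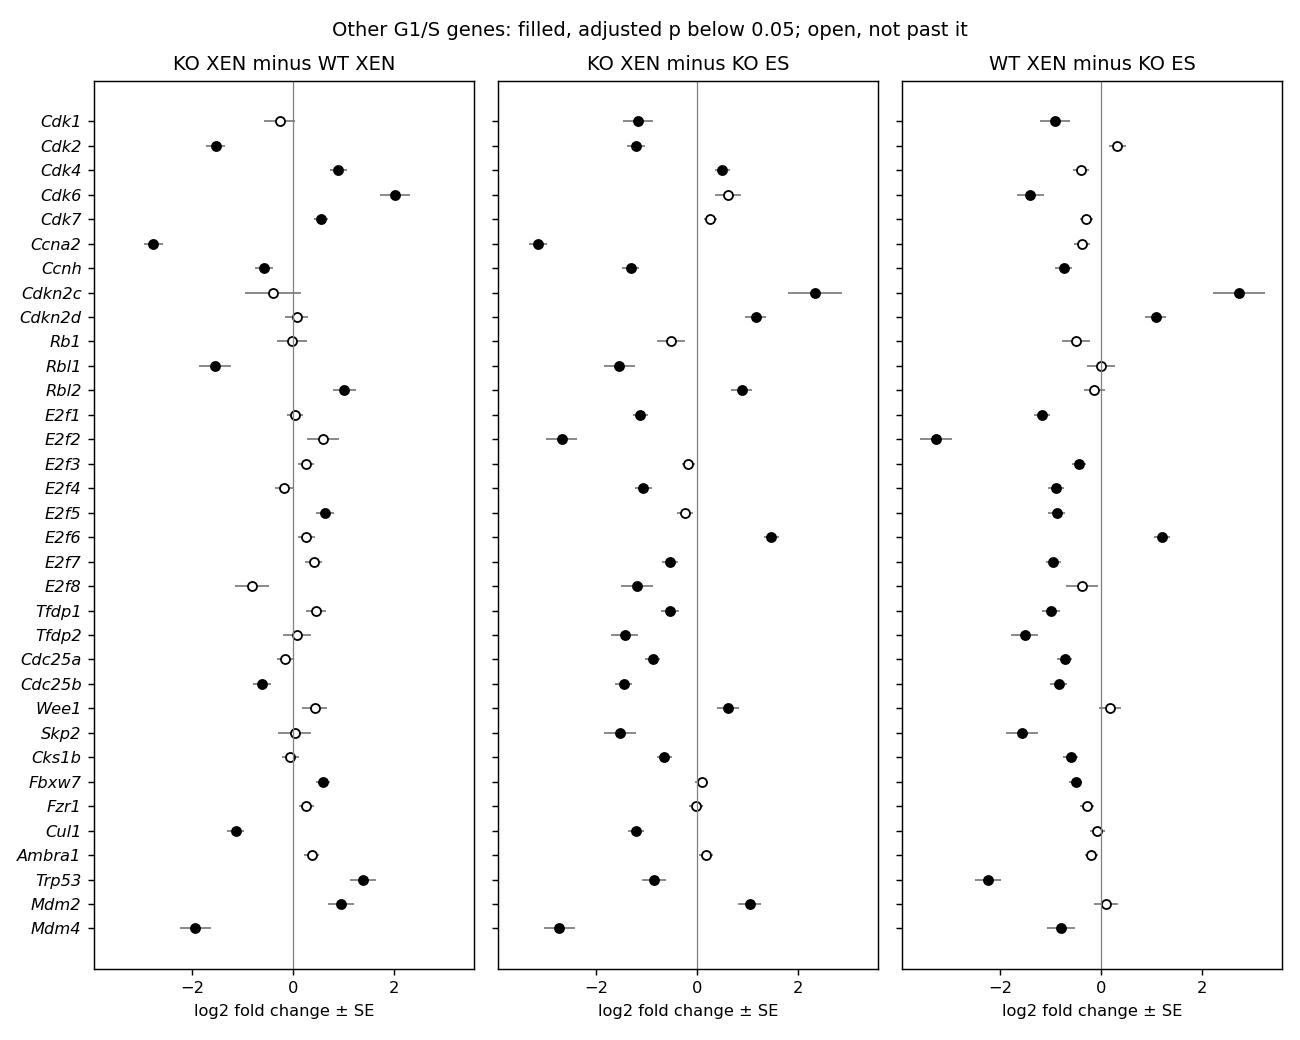
Log2 fold change and standard error of the other G1/S genes in the 3 comparisons, without Ccna1, whose level was at most 0.552 CPM; filled points passed an adjusted p of 0.05. Most E2F genes lie left of 0 in both comparisons with KO ES, and Cdk6 and Ccna2 lie on opposite sides in KO XEN against WT XEN.

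The genes whose log2 CPM followed Cdkn1a most closely over the 7 libraries, among 11506 whose highest group averaged 10 CPM or more, were Igfbp3, Actn1, Tm2d2, Jph2 and Shd, with Pearson correlations between 0.998 and 0.999. Igfbp3, a binding protein of insulin-like growth factors, stood at 8.25 to 8.98 CPM in KO ES, 62.0 and 28.1 in WT XEN, and 552 and 363 in KO XEN. Actn1, an actin cross-linker, stood at 263 to 270 CPM, 633 and 504, and 2115 and 1748. The libraries fall into 3 groups, so that the correlation mainly describes the order of the groups.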

How the data were processed

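The authors deposited unnormalized read counts for 43629 Ensembl genes in 7 libraries. Per the submitters' processing notes, the authors used mm10, STAR 2.4.2a and featureCounts 1.4.5-p1; the annotation release and the strand setting of the counting are not given in the sources used here. GENCODE M21 (GRCm38, the assembly of mm10) gave symbols for 42462 IDs, positions, exon lengths and 3′ UTRs, and RefSeq the microRNA and promoter sequences.

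All 7 libraries entered a single fit with 3 groups in R 4.3.3 with edgeR 4.0.16 (quasi-likelihood test, TMM scaling, filterByExpr by group, Benjamini-Hochberg adjustment over 18426 genes, called below 0.05, 4 residual degrees of freedom). CPM values use TMM-scaled library sizes. DESeq2 1.42.0, other scalings, no filter, line as a block and left-out libraries were alternatives. The code was tested on simulated data. Same-named knockout libraries come from the same line, which is the pairing, although their deviations correlated at only 0.06 over all genes.

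The 10 genes, the pathway and marker lists (ES cell, XEN, fibroblast, neural, proliferation) and the motifs were chosen with earlier results of these data known. Named besides the members are, per comparison, up to 6 pathway genes with the smallest adjusted p and no overlap, Cdk2, Cdk4, Cdk6 and the pocket proteins, and the 5 genes most like Cdkn1a. Mdm2 was named after its values were seen, because it was listed with Trp53 and Mdm4. Protein sequences are not used here.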

Additional observations from a re-analysis of the deposited data

How the results depend on the processing

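Each of the 30 member values (10 genes in 3 comparisons) was recomputed under 16 alternatives. Of 480 values, 435 kept direction and side of the threshold, 35 lost the call, 3 gained it and 7 changed sign; 9 of the 30 kept both in every alternative. The sign changes concern small differences that were not called. The log2 fold change of Ccnd2 in KO XEN against WT XEN was 0.0022 without WT XEN B and 0.32 without KO XEN C4 or without both C4 libraries, and ran from -0.66 to 0.32 as each library was left out. That of Ccne1 was -0.0512 without WT XEN B and ran from -0.0512 to 0.253. Cdkn1b in KO XEN against KO ES was 0.15 without KO ES C4 and 0.14 without both C4 libraries, and ran from -0.42 to 0.15. Ccne2 in WT XEN against KO ES was 0.0673 without line 5-3.

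Without the 3 libraries of line 5-3, genes called in KO XEN against WT XEN, KO XEN against KO ES and WT XEN against KO ES were 0, 3968 and 3436, by edgeR with 6514, 8963 and 8731 at an unadjusted p under 0.05. Members called were then 0, 6 and 3 and pathway genes called 0, 4 and 2. This fit has 4 libraries and 1 residual degree of freedom, and a group left with a lone library is assumed to vary like the others. With line as a replicate block 8863, 12906 and 11697 genes and 8, 9 and 9 members were called, and no member call changed. Upper-quartile scaling moved the median of all genes by -0.12 in KO XEN against KO ES and -0.17 in WT XEN against KO ES. Depth limits Cdkn2a and Cdkn2b in KO ES, with 25 to 42 counts a library.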

Other observations

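Among the other pathway genes, the 3 named here were chosen after their values were seen. Cdkn2c and Cdkn2d, the remaining INK4 genes, were higher in both differentiated groups than in KO ES and were not called between the genotypes, where Cdkn2a and Cdkn2b were. Cdkn2d stood at 5.93 ± 0.202 CPM (SD, n = 3) in KO ES, 13.3 ± 2.29 (n = 2) in KO XEN and 12.6 ± 0.665 (n = 2) in WT XEN. Its log2 fold change was 1.17 ± 0.21 in KO XEN against KO ES (edgeR adjusted p = 0.00136) and 0.08 ± 0.23 in KO XEN against WT XEN (edgeR adjusted p = 0.812). Cdkn2c was rare, at 0.291 ± 0.185 CPM in KO ES, 1.95 ± 0.104 in WT XEN and 1.47 ± 0.229 in KO XEN. Whether the genotype acts differently on these genes than on Cdkn2a and Cdkn2b was not tested. Skp2, which marks p27 for degradation, stood at 148 ± 55.5 CPM in KO ES, with 51.3 ± 6.52 for KO XEN and 50.1 ± 2.73 for WT XEN. It was lower in both differentiated groups (edgeR adjusted p = 0.00328 for WT XEN against KO ES and 0.00308 for KO XEN against KO ES). Cdkn1b, the gene of p27, was called higher than in KO ES for WT XEN and was not called for KO XEN.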
